A study of Arabidopsis thaliana with 15 samples.

Results

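The comparison described here sets Arabidopsis roots kept for 3 h in hydrogen peroxide (H2O2) against roots kept for 1 h in it. It was chosen by treatment alone and rests on 6 of 15 libraries, with replicates a, b and c at each time. All seedlings were wild type of the Columbia-0 ecotype, 7 d old, and each replicate pooled the roots of 30 to 50 seedlings. The 1 h and the 3 h groups were both in 5 mM H2O2 in water. The other groups were roots kept for 1 h in water, for 2 h in 5 mM H2O2, and for 2 h in 5 mM H2O2 with 10 µM of the dye Rose Bengal. The 1 h in water is that of the treatment labels, whereas the sample titles number the water group before the 1 h H2O2 group. Root RNA was counted by MARS-seq, which reads a tag near the 3' end of each poly(A) transcript. The comparison asks which transcripts went on changing once the first hour of oxidant exposure had passed. No water sample of 3 h was used here, so time in H2O2 and time in solution cannot be told apart. In bulk roots, fewer cells of a type and less RNA per cell cannot be told apart either.

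H2O2 enters plant cells partly through aquaporins and oxidizes thiols in proteins and glutathione. Heat shock factors then switch on small heat shock proteins, which hold damaged proteins until larger chaperones refold them, and bZIP and NAC factors switch on glutathione S-transferases and sugar transferases that detoxify reactive products. In the cell wall, H2O2 is the substrate with which peroxidases crosslink extensins, rod-shaped glycoproteins that are abundant in growing root hairs and elongating cells.

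Of 9986 genes tested, 690 rose between 1 h and 3 h (6.91%) and 693 fell (6.94%), as called at an adjusted p under 0.05 by the quasi-likelihood test of edgeR with Benjamini-Hochberg adjustment. Of these, 510 rose (5.11% of the genes tested) and 598 fell (5.99%) by at least 1 on the log2 scale. The median log2 fold change over all genes tested was -0.06. All 3 libraries of 3 h stood above all 3 of 1 h in 13.9% of the genes and below them in 14.8%. The authors' deposited table calls 222 genes in this contrast, 137 of them higher at 3 h, and all 222 were called here in the same direction. Upper-quartile scaling shifted the median gene by -0.12 and gave 541 higher and 878 lower, and keeping every listed gene shifted it by 0.15 and gave 916 higher and 617 lower. Without 1 h replicate a 749 genes were called, without 3 h replicate b 908 and without 3 h replicate c 753.

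**Figure D1:**
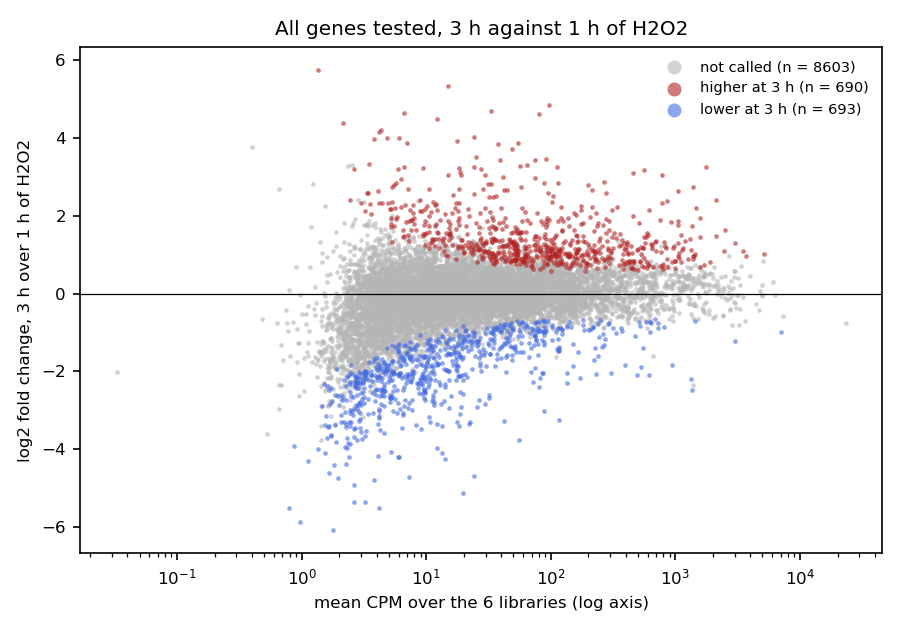
Each point is a gene tested, with its mean level over the 6 libraries in CPM (counts scaled to a common library total) on a log axis and its log2 fold change at 3 h over 1 h of H2O2. The 690 genes called higher are in red, the 693 called lower in blue and the others in grey. The genes called higher had a median level of 71.6 CPM, those called lower 10.8 CPM and the others 17.2 CPM.

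The libraries held 689372 (replicate c) to 4464761 counts at 1 h and 2580683 to 4080521 at 3 h, and libraries of a group correlated at 0.890 to 0.969 in log2 CPM. All 9 root-defining genes were counted, among them the tonoplast aquaporin gene TIP2;2 and the Casparian strip gene CASP1. None of them was called in the fit over all 15 libraries (2 at an unadjusted p under 0.05). BGLU22 (log2 fold change -1.57, adjusted p = 0.0529) was called lower by DESeq2 and under upper-quartile scaling, and with only the 6 libraries both it and PYK10 (log2 fold change -1.16, adjusted p = 0.0981), another root beta-glucosidase gene, were called lower. The summed share of the 9 in the counts was 0.216, 0.224 and 0.221% at 1 h and 0.131, 0.145 and 0.17% at 3 h, so the groups did not overlap (exact permutation test, p = 0.1, the smallest that 3 against 3 libraries allow). The 13 photosynthesis genes that mark shoot tissue summed to 0.0491, 0.0539 and 0.0421% at 1 h and 0.0353, 0.0403 and 0.0379% at 3 h, again without overlap (exact p = 0.1). None of the 8 of these that were tested was called (none at an unadjusted p under 0.05 and none by DESeq2). RBCS2B, which was not among the 8 tested, had no counts in the 3 libraries of 1 h. What part these shifts have in the results was not tested.

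Most small heat shock proteins rose. Of 11 cytosolic members tested, 8 rose and none fell, with a median log2 fold change of 2.39, and 8 rose and none fell under every alternative tried, of 10 or 11 tested. The other members were not called, and one of them, AT4G21870, had all its 3 h libraries below those of 1 h at a low level (log2 fold change -1.47, adjusted p = 0.109). The 8 that rose are close relatives, so reads of near-identical class I members may be split uncertainly among them. HSP17.6A (AT5G12030), a class II member, stood at 276, 319 and 406 CPM at 1 h and 1719.6, 2312 and 5511 CPM at 3 h. Every library of 3 h was above every library of 1 h, and replicate c was the highest at both times. Its rise was 9.56-fold (log2 fold change 3.26, SE 0.38, adjusted p = 2.45e-05). Its mean was 19.4 CPM in water and 1031 CPM at 2 h. The other class II gene, HSP17.6II, rose 8.33-fold (log2 fold change 3.06, adjusted p = 2.42e-05), and HSP17.4, a class I gene and the most abundant of the list at 3 h, rose 5.25-fold (log2 fold change 2.39, adjusted p = 4.55e-04). Together the 12 listed genes took 0.236, 0.258 and 0.296% of the counts at 1 h and 1.07, 1.06 and 1.94% at 3 h. The groups did not overlap, and replicate c of 3 h held the largest share (exact permutation test, p = 0.1, the smallest possible). The share averaged 0.024% in water and 0.631% at 2 h.

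The small heat shock proteins of organelles rose as well, all 4 of 4 tested, with a median log2 fold change of 2.76. HSP21, the plastid member, stood at 8.30, 7.90 and 12.6 CPM at 1 h and 64.1, 58.7 and 94.8 CPM at 3 h. The groups were far apart and the 3 h libraries spread little. It rose 8.03-fold (log2 fold change 3.01, SE 0.44, adjusted p = 1.84e-04) and had averaged 0.735 CPM in water and 23.49 CPM at 2 h. ATHSP22.0, the member of the endoplasmic reticulum, rose 7.21-fold (log2 fold change 2.85, adjusted p = 2.99e-05). HSP23.6-MITO, a mitochondrial member, rose 6.33-fold (log2 fold change 2.66, adjusted p = 5.22e-05). The cytosol, the plastid, the mitochondrion and the endoplasmic reticulum were thus all represented among the small chaperones that rose.

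The larger ATP-dependent chaperones moved less. Of 21 chaperone and cochaperone genes tested, 7 rose and none fell (median log2 fold change 0.72). HSP90.1, the stress-induced cytosolic HSP90, stood at 44.2, 60.8 and 39.5 CPM at 1 h and 205, 135 and 201 CPM at 3 h. All 3 h libraries were above all 1 h libraries, with replicate b the lowest of 3 h. It rose 3.63-fold (log2 fold change 1.86, SE 0.34, adjusted p = 0.0013). The stress-induced HSP70 gene Hsp70b rose 3.97-fold (log2 fold change 1.99, adjusted p = 1.72e-04), and MBF1C, a coactivator needed for heat tolerance, rose 4.43-fold (log2 fold change 2.15, adjusted p = 0.00164). HSC70-1, a constitutive HSP70, was not called (log2 fold change -0.58, adjusted p = 0.12), but was called lower without 1 h replicate b or under upper-quartile scaling. The list's summed share of counts did not move beyond its spread, at 1.09% at 1 h and 1.02% at 3 h (exact permutation test, p = 0.5).

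Among the heat shock factors, the regulators of these chaperones, 4 of 10 tested rose and none fell (median log2 fold change 0.46). HSFA2, which prolongs the heat shock response, stood at 13.8, 21.9 and 20.5 CPM at 1 h and 54.0, 38.3 and 52.1 CPM at 3 h. The groups did not overlap. It rose 2.52-fold (log2 fold change 1.34, SE 0.30, adjusted p = 0.00577) and had averaged 1.03 CPM in water and 25.7 CPM at 2 h. Without 3 h replicate c 1 of the 10 rose, and at the depth of the smallest library 2 of 7 tested did.

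Genes for protein folding in the endoplasmic reticulum fell in part. None of 10 folding genes rose and 3 fell: the HSP70 BIP2 (log2 fold change -0.87, adjusted p = 0.0126), the calnexin CNX1 (log2 fold change -0.66, adjusted p = 0.0438) and the disulfide isomerase PDIL1-1 (log2 fold change -2.06, adjusted p = 0.0361). The list's share of counts was 0.499, 0.444 and 0.543% at 1 h and 0.335, 0.334 and 0.248% at 3 h, and the groups did not overlap (exact permutation test, p = 0.1, the smallest possible). The gene calls were fragile: that of PDIL1-1 was lost by DESeq2, with a replicate block and with no filter. Of the list, 1 call was left without 1 h replicate a, 1 h replicate c, 3 h replicate a or 3 h replicate b, and likewise with no filter or with only the 6 libraries. None was left without 3 h replicate c, while 5 fell under upper-quartile scaling. Of 43 proteasome genes tested, 1 rose and 2 fell (median log2 fold change -0.19), against 13.8% called among all genes tested. RPN6, a lid subunit of the 26S proteasome, fell 4.09-fold (log2 fold change -2.03, adjusted p = 2.09e-04). The calls of the base subunit RPT3 and of AT5G20000, which rose, were each lost without some library, and that of RPT3 also at the depth of the smallest library.

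Polyubiquitin genes, grouped after their values were seen, held 3 rises among 5 tested. UBQ14 stood at 314, 339.7 and 308 CPM at 1 h and 835, 963 and 1792 CPM at 3 h. Its 3 h libraries were all above those of 1 h and replicate c was the highest. It rose 3.73-fold (log2 fold change 1.90, SE 0.25, adjusted p = 7.80e-05). UBQ10, among the most abundant transcripts that changed, rose 2.122-fold (log2 fold change 1.09, adjusted p = 0.0069). The coding repeats of these genes are near-identical, so the split of reads among them is uncertain.

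**Figure D2:**
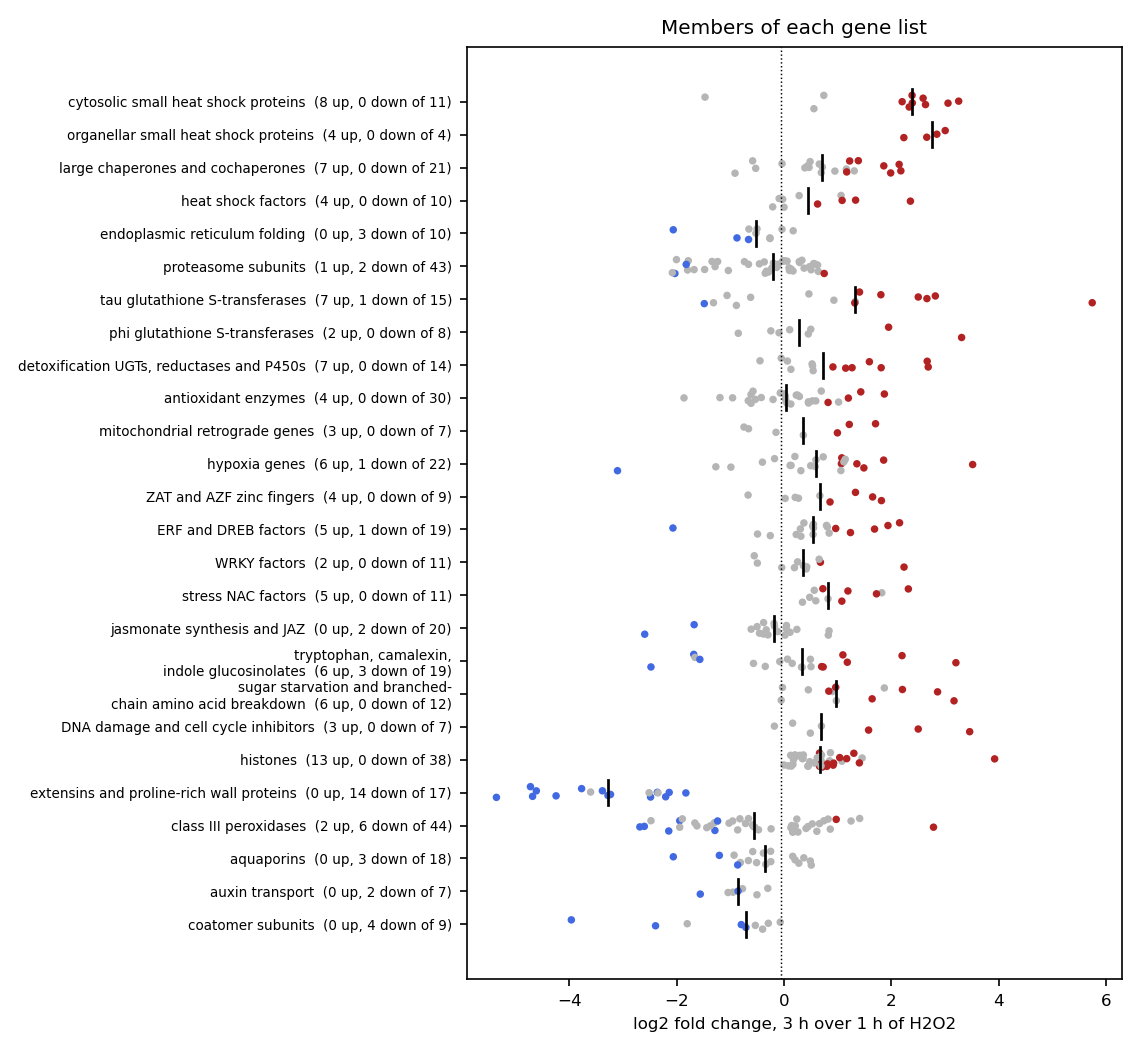
Each point is a member of a gene list at its log2 fold change (3 h over 1 h of H2O2), in red where called higher, in blue where called lower and in grey where not called. Black bars are list medians, the dotted line is the median of all genes tested (-0.06), and labels give the counts called of the members tested; small heat shock proteins lie farthest to the right and extensins farthest to the left. The point at the far right is GSTU4, which had no counts at 1 h, so its place depends on the fit.

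Detoxification genes rose in part. Of 15 tau-class glutathione S-transferases, plant enzymes that conjugate glutathione to reactive molecules, 7 rose and 1 fell (median log2 fold change 1.32). GSTU24 stood at 24.9, 37.1 and 28.4 CPM at 1 h and 191, 134 and 204 CPM at 3 h. Its groups were well apart. It rose 5.67-fold (log2 fold change 2.50, SE 0.35, adjusted p = 1.47e-04) after 8.63 CPM in water and 106 CPM at 2 h. GSTU19, with the highest CPM of the class, rose 2.66-fold (log2 fold change 1.41, adjusted p = 8.65e-04). GSTU4 had no counts in the 3 libraries of 1 h and 1.15, 2.00 and 4.96 CPM at 3 h, at least 6.15-fold higher against a floor of 3 counts over the 1 h group. With that bound in place of its fitted value the list's median was the same, 1.32, and the call of GSTU4 was lost without 1 h replicate a or b or 3 h replicate c. The median was 0.43 without 1 h replicate b, and 0.86 without 3 h replicate c, where 5 rose and 2 fell. GSTU20, the neighbour of GSTU19, fell 2.80-fold (log2 fold change -1.48, adjusted p = 0.0219), a call that was lost without 1 h replicate a or b or without 3 h replicate a or b.

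Of 8 phi-class members, 2 rose, and both belong to a near-identical pair whose reads may be shared. Among all genes tested, 6.91% were called higher. GSTF3 stood at 5.53, 11.5 and 20.5 CPM at 1 h and 77.2, 133 and 138 CPM at 3 h and rose 9.93-fold (log2 fold change 3.31, adjusted p = 2.45e-05). Of 14 genes for glycosyltransferases (UGTs), reductases and cytochrome P450 enzymes, 7 rose and none fell (median log2 fold change 0.73). CYP81D8, a P450 gene often used as a marker of xenobiotic stress, stood at 11.1, 13.8 and 9.47 CPM at 1 h and 75.5, 65.5 and 91.3 CPM at 3 h. No library of 3 h reached down to 1 h. It rose 6.37-fold (log2 fold change 2.67, SE 0.35, adjusted p = 6.49e-05). UGT75B1, a glucosyltransferase, rose 3.02-fold (log2 fold change 1.59, adjusted p = 0.0010), and the aldo-keto reductase AKR4C8 rose 2.41-fold (log2 fold change 1.27, adjusted p = 0.00301). None of the 5 glucosyltransferase genes of the UGT73B group tested was called, with log2 fold changes from -0.05 (UGT73B2) to 0.54 (UGT73B5). The 17 listed genes took 0.333% of the counts at 1 h, 0.502% at 2 h and 0.435% at 3 h, against 0.0573% in water.

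Antioxidant genes, for enzymes that remove superoxide or H2O2 or make and recycle glutathione and ascorbate, moved little as a list. Of 30 tested, 4 rose and none fell, and the median log2 fold change was 0.04. The number of calls was close to the 13.8% called among all genes tested (6.91% higher and 6.94% lower). CSD1, the cytosolic copper/zinc superoxide dismutase, stood at 146, 95.2 and 164 CPM at 1 h and 187, 379 and 514 CPM at 3 h. The groups did not overlap, but 3 h replicate a lay close to the 1 h range. It rose 2.70-fold (log2 fold change 1.43, SE 0.33, adjusted p = 0.00698). GSH1, which catalyses the first step of glutathione synthesis, rose 1.77-fold (log2 fold change 0.82, adjusted p = 0.00636) from levels that were already high at 1 h. The other calls were the catalase gene CAT1 and the ascorbate peroxidase gene APX2. CAT2 (log2 fold change -0.07, adjusted p = 0.892) and APX1 (log2 fold change 0.29, adjusted p = 0.495), other members of those families, were not called. In sulfate uptake and assimilation 1 of 9 rose and 1 fell: the high-affinity sulfate transporter gene SULTR1;2 fell 4.93-fold (log2 fold change -2.30, adjusted p = 0.00656), a call lost at the depth of the smallest library. The rise of the sulfite reductase gene SIR (log2 fold change 0.78, adjusted p = 0.0147) was lost without 3 h replicate b or with only the 6 libraries. Without 1 h replicate c or 3 h replicate a, 2 genes of the list rose.

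Some of the smallest p-values belonged to single genes of small-molecule metabolism. MT2A, a metallothionein that binds copper and zinc through cysteines, stood at 79.3, 104 and 104 CPM at 1 h and 555, 757 and 1146 CPM at 3 h. The 3 h libraries were all higher by several fold. It rose 8.52-fold (log2 fold change 3.09, SE 0.28, adjusted p = 5.02e-06), and its mean was 357 CPM in water and 349 CPM at 2 h, so the 1 h group was the lowest of the 4. Of 5 metallothioneins tested it alone was called, and MT1A read 26.7, 16.8 and 36.3 CPM at 1 h and 2.76, 3.59 and 30.3 CPM at 3 h with overlapping groups (log2 fold change -1.14, adjusted p = 0.346). Without 3 h replicate c, its log2 fold change was -2.99 with an adjusted p of 0.0183. FDH, the mitochondrial formate dehydrogenase, stood at 119.8, 124 and 136 CPM at 1 h and 402, 478 and 497 CPM at 3 h. Its spread was small in both groups. It rose 3.64-fold (log2 fold change 1.86, SE 0.19, adjusted p = 6.90e-06), after 242 CPM in water and 266 CPM at 2 h. GLYI7, of the glyoxalase I family that clears methylglyoxal, stood at 3.69, 2.37 and 3.16 CPM at 1 h and 53.0, 54.3 and 29.8 CPM at 3 h and rose 16.2-fold (log2 fold change 4.02, adjusted p = 2.45e-05). GLYI4 of the same family rose 2.51-fold (log2 fold change 1.33, adjusted p = 0.0026), from 427, 312 and 425 CPM at 1 h to 831, 1075 and 1010 CPM at 3 h. Its mean was 1001 CPM in water and 691 CPM at 2 h, so its 1 h libraries all lay below the water mean. The other 2 of the family tested did not pass the test.

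**Figure D3:**
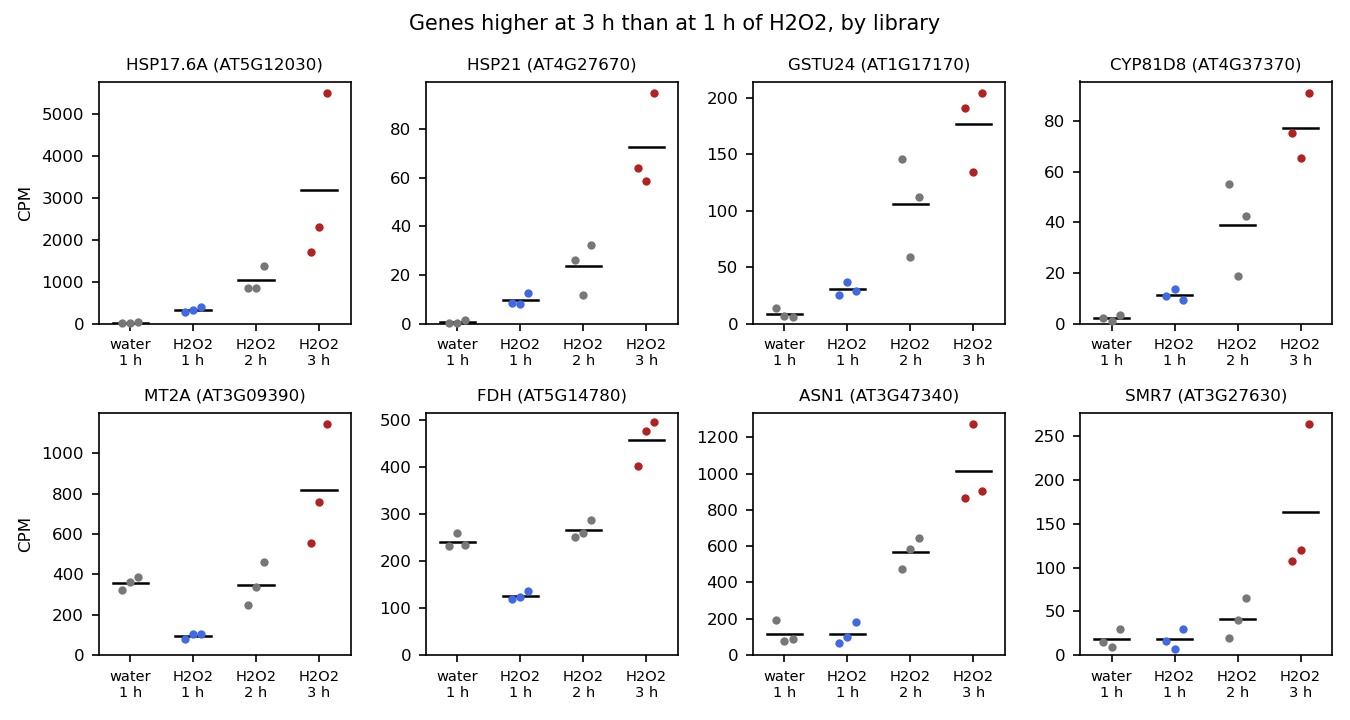
Each panel gives 1 gene in CPM on a linear axis from 0, with replicates a, b and c as points from left to right and the group mean as a bar, for water 1 h and H2O2 at 1, 2 and 3 h. In all 8 panels the 3 libraries of 3 h (red) lie above the 3 of 1 h (blue). MT2A, FDH and, by a small margin, ASN1 are among the panels whose mean at 1 h lies below that in water.

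Alternative respiration and low-oxygen genes rose in part. Of 7 genes that respond to mitochondrial dysfunction, 3 rose and none fell. By DESeq2, under upper-quartile scaling or without 1 h replicate b, 1 of the list was called lower. The summed share of the 12 listed genes did not rise. It averaged 0.0914% of the counts at 1 h and 0.076% at 3 h, with overlapping groups (exact permutation test, p = 0.3). NDB2, an alternative NADH dehydrogenase, stood at 77.4, 68.5 and 71.0 CPM at 1 h and 117, 143 and 174 CPM at 3 h. The 1 h libraries were nearly alike and all below those of 3 h. It rose 2.00-fold (log2 fold change 1.00, SE 0.21, adjusted p = 0.00359). AOX1A, the alternative oxidase, rose 3.27-fold (log2 fold change 1.71, adjusted p = 0.0149), a call lost without 1 h replicate a or 3 h replicate c. Of 22 hypoxia genes, 6 rose and 1 fell (median log2 fold change 0.59), against 6.91% called higher and 6.94% called lower among all genes tested. The mean share of the counts held by the hypoxia genes was 0.23% in water, 0.17% at 1 h, 0.183% at 2 h and 0.238% at 3 h. The share was thus lowest at 1 h, and the libraries of 3 h overlapped those in water. ERF71 (HRE2), a hypoxia-induced ERF factor, stood at 4.61, 3.95 and 3.16 CPM at 1 h and 30.1, 30.7 and 78.9 CPM at 3 h. All libraries of 3 h were above those of 1 h and replicate c was more than the other two together. It rose 11.5-fold (log2 fold change 3.52, SE 0.49, adjusted p = 1.38e-04). LBD41, another low-oxygen marker, rose 2.81-fold (log2 fold change 1.49, adjusted p = 5.88e-04). The fermentation gene ADH1 rose 2.57-fold (log2 fold change 1.36, adjusted p = 0.0124), a call lost without 1 h replicate a or 3 h replicate c, and PDC1 was not called (log2 fold change 1.14, adjusted p = 0.224). Without 1 h replicate a 2 of the hypoxia genes rose while 3 did without 3 h replicate c, with only the 6 libraries or at the depth of the smallest library. The call of the lower gene, CML38, was lost in each fit that left out 1 h replicate a or c or any library of 3 h, and with a replicate block.

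Stress transcription factors rose in part. Of 9 ZAT and AZF zinc finger genes 4 rose, of 19 ERF and DREB genes 5 rose and 1 fell, of 11 WRKY genes 2 rose, and of 11 stress NAC genes 5 rose (median log2 fold changes 0.67, 0.55, 0.36 and 0.82). Among all genes tested 6.91% were called higher and 6.94% lower. Whether the 2 WRKY rises exceed that share was not tested. WRKY45 stood at 67.3, 46.0 and 72.6 CPM at 1 h and 207, 323 and 327 CPM at 3 h. Its groups did not overlap. It rose 4.72-fold (log2 fold change 2.24, SE 0.26, adjusted p = 2.56e-05), and its mean was 105 CPM in water and 164 CPM at 2 h. ERF1, an activator of defence genes downstream of ethylene, rose 3.22-fold (log2 fold change 1.69, adjusted p = 0.00556). NAC055 rose 4.99-fold (log2 fold change 2.32, adjusted p = 0.00466) and NAC032 rose 2.29-fold (log2 fold change 1.19, adjusted p = 0.00618). The zinc finger gene AT3G46080 rose 3.52-fold (log2 fold change 1.82, adjusted p = 0.00177). ZAT10 (log2 fold change 0.21, adjusted p = 0.628), ERF6 (log2 fold change 0.55, adjusted p = 0.128) and RD26 (log2 fold change 0.59, adjusted p = 0.288) were not called, although ERF6 passed without 3 h replicate a.

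Several of these factor counts rested on single libraries. Without 3 h replicate c, 1 zinc finger, 1 ERF or DREB, 1 WRKY and 3 NAC genes rose. Without 1 h replicate b 2 zinc finger genes rose, and 3 NAC genes did without 1 h replicate a or with only the 6 libraries. DREB26, the factor that fell, lost its call when any library but 3 h replicate c was left out, and with no filter. WRKY6, the other WRKY that rose, lost its call without 1 h replicates a or b or 3 h replicates b or c. The call of WRKY6 was also lost under upper-quartile scaling, with only the 6 libraries and at the depth of the smallest library.

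In tryptophan-derived defence, genes of the camalexin branch were among the rises, and the 3 falls were genes of glucosinolate synthesis or its regulation. Of 19 genes tested, 6 rose and 3 fell (median log2 fold change 0.33). PAD3, the P450 of the last steps to camalexin, stood at 8.30, 19.6 and 11.1 CPM at 1 h and 59.7, 51.9 and 88.8 CPM at 3 h. The groups did not overlap. It rose 4.60-fold (log2 fold change 2.2, SE 0.41, adjusted p = 0.00147). CYP71A12, an earlier P450 of the same branch, read 0, 0.988 and 3.16 CPM at 1 h and 5.51, 12.8 and 12.9 CPM at 3 h, low at both times (log2 fold change 3.21, adjusted p = 0.00185). The tryptophan synthase gene TSA1 (AT3G54640) rose 2.27-fold (log2 fold change 1.18, adjusted p = 0.00421). MYB34, an activator of indole glucosinolate genes, stood at 119, 43.1 and 58.4 CPM at 1 h and 19.1, 24.8 and 30.3 CPM at 3 h and fell 2.96-fold (log2 fold change -1.57, adjusted p = 0.00814). The glucosinolate enzymes UGT74B1 (log2 fold change -2.48, adjusted p = 0.0114) and SOT16 (log2 fold change -1.68, adjusted p = 0.0491) also fell. CYP83B1, a P450 gene of the indole glucosinolate branch, was not called. The call of SOT16 was lost in 9 of 13 alternatives. At the depth of the smallest library 1 gene of the list fell. Without 1 h replicate a none of the 3 falls was called, and without 1 h replicate c or 3 h replicate c 3 of the 6 rises were. The difference between the branches was not itself tested.

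Jasmonate genes held few calls. Of 20 genes for jasmonate synthesis and its JAZ repressors, none was called higher (1 at an unadjusted p under 0.05, none by DESeq2) and 2 were called lower, against 6.91% and 6.94% of all genes tested, with a median log2 fold change of -0.18. A single gene was called higher without 1 h replicate b or 3 h replicate a, and at the depth of the smallest library none was called. JAZ3 fell from 4.61, 4.74 and 1.58 CPM to 1.15, 0.399 and 0 CPM (log2 fold change -2.59, adjusted p = 0.0118), and JAZ1 fell 3.19-fold (log2 fold change -1.67, adjusted p = 0.0199). Each of these lost its call without at least 1 library, and 1 of the 2 was left without 1 h replicate a, 1 h replicate b or 3 h replicate c. The biosynthesis gene AOS was not called (log2 fold change -0.18, adjusted p = 0.582). NIT2 and NIT4, nitrilases that hydrolyse nitriles, rose, and of this family, looked up after its values were seen, NIT1 (log2 fold change 0.80, adjusted p = 0.137) and NIT3 (log2 fold change 0.33, adjusted p = 0.728) were not called, although NIT1 passed without 1 h replicate b. NIT2 stood at 7.37, 20.7 and 1.58 CPM at 1 h and 137, 94.2 and 191 CPM at 3 h. It rose 10.9-fold (log2 fold change 3.45, adjusted p = 4.30e-04), but it lies beside the similar NIT1 and NIT3, whose reads it may share.

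Genes that respond to sugar shortage and that break down branched-chain amino acids rose in 6 of 12 cases and fell in none, with a median log2 fold change of 0.97. ASN1, the dark-induced asparagine synthetase, stood at 65.5, 99.4 and 180.0 CPM at 1 h and 864, 1274 and 904 CPM at 3 h. The lowest library of 3 h was several times the highest of 1 h. It rose 9.0-fold (log2 fold change 3.17, SE 0.38, adjusted p = 2.65e-05), after 118 CPM in water and 566 CPM at 2 h. SEN1 (AT4G35770), a gene induced by darkness and sugar starvation, rose 7.28-fold (log2 fold change 2.86, adjusted p = 1.33e-04). BCAT2, which starts branched-chain amino acid breakdown, rose 4.62-fold (log2 fold change 2.21, adjusted p = 3.67e-04), and IVD, the isovaleryl-CoA dehydrogenase of the same route, rose 3.13-fold (log2 fold change 1.64, adjusted p = 4.30e-04). DIN10, another dark-induced gene, was not called (log2 fold change -0.03, adjusted p = 0.982). The list's share of counts was 0.0923, 0.18 and 0.137% at 1 h and 0.362, 0.354 and 0.261% at 3 h, without overlap (exact permutation test, p = 0.1, the smallest possible). Outside the list, and picked after values were seen, the carbon-recovery genes PPDK (pyruvate orthophosphate dikinase) and ICL (isocitrate lyase) rose 7.17-fold (log2 fold change 2.84, adjusted p = 2.45e-05) and 5.09-fold (log2 fold change 2.35, adjusted p = 7.86e-05), and THA1, a threonine aldolase, rose 10.7-fold (log2 fold change 3.42, adjusted p = 5.12e-04).

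**Figure D4:**
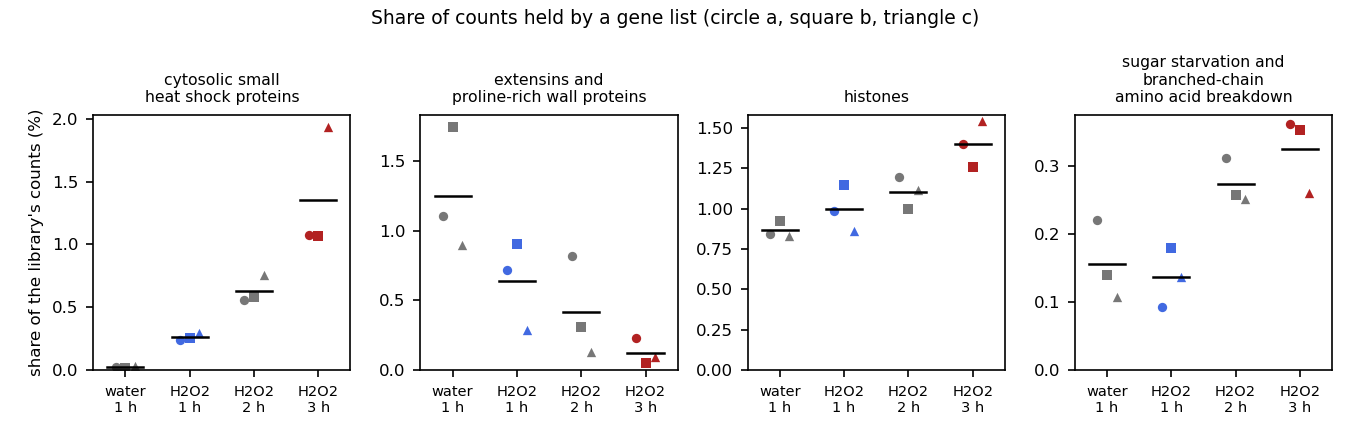
Each panel gives the share of a library's counts held by 1 gene list, in percent on an axis from 0, for water 1 h and H2O2 at 1, 2 and 3 h, with replicate a as a circle, b as a square and c as a triangle and bars at the means. The 3 h libraries (red) lie above those of 1 h (blue) for small heat shock proteins, histones and sugar starvation genes and below them for extensins.

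Inhibitors of cyclin-dependent kinases of the SIAMESE-RELATED family, which arrest the cell cycle after DNA damage and oxidative stress, were among the larger rises. Of 7 genes tested on the list, 3 rose, all of this family, and none fell, against 6.91% called higher among all genes tested. The 10 listed genes averaged 0.0456% of the counts in water, 0.0297% at 1 h, 0.0317% at 2 h and 0.0504% at 3 h. Their mean share was thus lowest at 1 h, and the libraries of 3 h overlapped those in water. SMR7 stood at 16.6, 6.91 and 30.0 CPM at 1 h and 107, 119.8 and 264 CPM at 3 h. Replicate c was the highest at both times, and the groups did not overlap. It rose 11-fold (log2 fold change 3.46, SE 0.57, adjusted p = 5.62e-04). SMR5 rose 5.67-fold (log2 fold change 2.50, adjusted p = 6.14e-04) and SMR4 rose 2.99-fold (log2 fold change 1.58, adjusted p = 0.00323). SIM itself was not called (log2 fold change -0.18, adjusted p = 0.61), and neither was SMR1, another member of the family. The DNA repair genes of the list were not among the members tested.

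Of 5 cell division genes tested, CDKA;1, the main cyclin-dependent kinase, fell from 3.69, 5.53 and 1.58 CPM to 1.15, 0.799 and 0.496 CPM (log2 fold change -2.21, adjusted p = 0.0199), and the call was lost without 3 h replicate b or c and the gene failed the filter without 1 h replicate b. CYCD3;1, a cyclin of proliferating cells, was not called (log2 fold change -1.03, adjusted p = 0.0874). The difference between the inhibitors and the division genes was not tested.

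Histone genes rose in 13 of 38 cases and fell in none, with a median log2 fold change of 0.66. The count depended on single libraries: 8 rose without 1 h replicate a, 4 without 3 h replicate c and 4 when the other groups were left out of the fit. Fold changes were small, as for HTA13, an H2A gene, which stood at 154, 145 and 140.5 CPM at 1 h and 259.9, 254 and 392 CPM at 3 h. Its groups did not overlap. It rose 2.06-fold (log2 fold change 1.04, SE 0.22, adjusted p = 0.00382). RAT5 (H2A) and AT5G10980 (H3.3) rose 2.65-fold (log2 fold change 1.41, adjusted p = 7.41e-04) and 2.25-fold (log2 fold change 1.17, adjusted p = 9.27e-04). AT1G75600, an H3-like gene with few counts at 1 h, was the exception and rose 15.2-fold (log2 fold change 3.93, adjusted p = 2.45e-05). Histone copies are near-identical and reads may be shared. The list held 0.988, 1.15 and 0.865% of the counts at 1 h and 1.40, 1.26 and 1.55% at 3 h (exact permutation test, p = 0.1, the smallest possible). The direction of the list was the same under upper-quartile scaling, where 9 rose and none fell.

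Structural proteins of the cell wall fell. Of 17 extensin and proline-rich protein genes tested, 14 fell and none rose, with a median log2 fold change of -3.28, the lowest among the lists with more than 1 member tested. EXT3, an extensin needed to build the wall of the root and embryo, stood at 2687, 2918 and 1268 CPM at 1 h and 711, 174 and 341 CPM at 3 h. Replicate c was the lowest of 1 h, yet it stayed above all of 3 h. The gene fell 5.60-fold (log2 fold change -2.49, SE 0.53, adjusted p = 0.00405). Its mean was 3193 CPM in water and 1546 CPM at 2 h. AT3G54580, a proline-rich extensin gene, stood at 30.4, 40.1 and 11.1 CPM at 1 h and 2.53, 0 and 1.49 CPM at 3 h, against 156 CPM in water and 7.63 CPM at 2 h. It fell 19.0-fold (log2 fold change -4.25, adjusted p = 0.00127). AT1G23720, of the same kind, fell 25.7-fold (log2 fold change -4.68, adjusted p = 5.87e-04), from 139 CPM in water and 47.1 CPM at 1 h to 1.49 CPM at 3 h. The repeats of extensins are alike, and reads may be shared among them.

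The extensin list's share of counts was 0.719, 0.91 and 0.289% at 1 h and 0.231, 0.0502 and 0.0946% at 3 h (exact permutation test, p = 0.1, the smallest possible), against 1.25% in water and 0.421% at 2 h. The groups did not overlap, though 1 h replicate c lay near 3 h replicate a. The count of falls was 9 without 1 h replicate a, 7 without 1 h replicate b, 8 without 3 h replicate b and 8 without 3 h replicate c, with no rise in any of them. With only the 6 libraries 8 of 9 tested fell, and at the depth of the smallest library 8 of 15 did. Without 3 h replicate a 15 fell and the median log2 fold change was -5.30. Of 8 root hair genes, 2 fell and none rose, and both, LRX1 and PRP3, are also on the extensin list. Among all genes tested, 6.94% were called lower. LRX1, a leucine-rich repeat extensin of root hairs, stood at 2.77, 4.54 and 3.16 CPM at 1 h and 0.689, 0 and 0 CPM at 3 h (log2 fold change -3.38, adjusted p = 0.0349), after 29.1 CPM in water. All its counts of 3 h came from replicate a, and the call was lost by DESeq2 and without 1 h replicate a or b or 3 h replicate b or c. The call of PRP3 (log2 fold change -2.14, adjusted p = 0.0423) was lost without the same libraries, with no filter and at the depth of the smallest library.

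Arabinogalactan proteins, glycoproteins of the plasma membrane and wall, were grouped after their values were seen. Of 37 tested, 18 fell and 1 rose, with a median log2 fold change of -1.12. AGP4 stood at 1221, 763 and 985 CPM at 1 h and 323, 238 and 135 CPM at 3 h. The groups did not overlap and replicate c was the lowest of 3 h. It fell 4.25-fold (log2 fold change -2.09, SE 0.32, adjusted p = 3.02e-04), with means of 919.7 CPM in water and 486 CPM at 2 h. FLA8, a fasciclin-like member, fell 4.13-fold (log2 fold change -2.05, adjusted p = 4.37e-04). AGP12 rose 3.36-fold (log2 fold change 1.75, adjusted p = 0.00616). The count of falls was 11 without 1 h replicate a and 12 without 1 h replicate c or 3 h replicate c.

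Class III peroxidases, which both make and use H2O2 in the wall, fell in 6 of 44 cases and rose in 2 (median log2 fold change -0.56), against 13.8% called among all genes tested. The median was -0.10 with only the 6 libraries, where 38 were tested, and 0.06 at the depth of the smallest library, where 2 of 34 rose and 2 fell. AT4G36430 was the exception with the largest rise. It stood at 43.3, 66.2 and 36.3 CPM at 1 h and 246, 319.8 and 485 CPM at 3 h, so every library of 3 h was several times those of 1 h. It rose 6.91-fold (log2 fold change 2.79, SE 0.31, adjusted p = 1.90e-05). The other riser, AT1G71695, lost its call without 1 h replicate a or c or 3 h replicate c, under upper-quartile scaling and with only the 6 libraries. AT5G40150 fell 6.43-fold (log2 fold change -2.68, adjusted p = 0.00658), and its fitted value was -5.06 without 3 h replicate a. The count of falls was 3 without 1 h replicate a and 2 without 1 h replicate b or 3 h replicate b, and that of rises 4 without 3 h replicate a and 1 without 1 h replicate a, 1 h replicate c or 3 h replicate c.

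Of 18 aquaporins, through which water and H2O2 cross membranes, 3 fell and none rose (median log2 fold change -0.36), against 13.8% called among all genes tested. PIP2;5, a plasma membrane member, fell from 11.1, 15.8 and 7.89 CPM to 3.21, 1.2 and 4.47 CPM (log2 fold change -2.06, adjusted p = 0.0124), a call lost without 1 h replicate b or 3 h replicate b. PIP2;4 (log2 fold change -0.86, adjusted p = 0.04) and TIP4;1 (log2 fold change -1.2, adjusted p = 0.0165) also fell, and PIP1;1 (log2 fold change 0.51, adjusted p = 0.286) and TIP1;1 (log2 fold change -0.81, adjusted p = 0.0511), other members, were not called, although TIP1;1 passed as lower without 1 h replicate b, under upper-quartile scaling and by DESeq2. The list held 1.66, 1.74 and 1.54% of the counts at 1 h and 1.25, 1.26 and 1.44% at 3 h (exact permutation test, p = 0.1, the smallest possible). The call of PIP2;4 was lost in 8 of 13 alternatives. Without 1 h replicate a or b or 3 h replicate b or c only 1 of the 3 was called, and 5 fell under upper-quartile scaling or by DESeq2. Of 7 auxin transporters, 2 fell and none rose. The influx carrier gene AUX1 stood at 58.1, 51.6 and 37.9 CPM at 1 h and 25.0, 15.2 and 8.93 CPM at 3 h. Its groups did not overlap. It fell 2.95-fold (log2 fold change -1.56, SE 0.31, adjusted p = 0.00293), after 65.4 CPM in water and 32.6 CPM at 2 h. The call of the second, ABCB19, was lost without 1 h replicate a or c or 3 h replicate a or c, and with no filter.

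In a further set of genes that fell, the mean at 3 h was far below those in water and at 1 and 2 h. CESA6, a catalytic subunit of the primary wall cellulose synthase, stood at 43.3, 34.0 and 42.6 CPM at 1 h and 4.13, 2.4 and 4.96 CPM at 3 h. The 1 h libraries were nearly alike and all 3 h libraries were far below. It fell 10.2-fold (log2 fold change -3.35, SE 0.32, adjusted p = 6.51e-06). Its mean was 32.2 CPM in water and 29.9 CPM at 2 h, and 21.8 CPM with Rose Bengal, so the mean of 3 h was below those of the other 4 groups. CESA1, its partner in the same complex, fell 1.94-fold (log2 fold change -0.96, adjusted p = 0.0119), a call lost without 1 h replicate a or b or 3 h replicate b or c. CEV1 (CESA3) read 7.37, 24.9 and 12.6 CPM at 1 h and 8.04, 2.4 and 7.44 CPM at 3 h and was not called (log2 fold change -1.43, adjusted p = 0.123).

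AT4G02620, subunit F of the vacuolar proton pump, stood at 181, 239.6 and 205 CPM at 1 h and 15.6, 17.2 and 34.2 CPM at 3 h. Again the 3 h libraries were all far below. It fell 9.55-fold (log2 fold change -3.26, SE 0.32, adjusted p = 6.90e-06), against 171 CPM in water and 228 CPM at 2 h and 203 CPM with Rose Bengal. VHA-A, subunit A of the pump, fell 5.40-fold (log2 fold change -2.43, adjusted p = 0.00624), a call lost without 1 h replicate b, and VHA-A3 (log2 fold change -0.28, adjusted p = 0.506) and VAG2 (log2 fold change 0.47, adjusted p = 0.244) were not called, although VAG2 passed as higher without 3 h replicate a. Of 8 subunits tested, looked up after the value of subunit F was seen, 3 fell and none rose, the third being TUF, subunit E1 (log2 fold change -1.29, adjusted p = 0.0447). The count of falls was 1 without 1 h replicate b, and 2 without any other single library, with no filter, with only the 6 libraries or at the depth of the smallest library.

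ANNAT1, annexin 1, which binds calcium and membranes and is abundant in roots, stood at 171, 91.3 and 208 CPM at 1 h and 12.6, 18.8 and 26.3 CPM at 3 h. Both groups spread about equally on a log scale and did not overlap. It fell 8.16-fold (log2 fold change -3.03, SE 0.44, adjusted p = 1.84e-04), after 107 CPM in water and 130.4 CPM at 2 h. ANNAT2 fell 4.64-fold (log2 fold change -2.21, adjusted p = 0.0025). TCTP, a regulator of growth, stood at 727, 1047 and 617 CPM at 1 h and 142, 195 and 227 CPM at 3 h, against 932 CPM in water and 951 CPM at 2 h. It fell 4.26-fold (log2 fold change -2.09, adjusted p = 1.84e-04) and is named here after its values were seen.

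In other genes with large falls, too, the mean at 3 h was below those in water and at 1 and 2 h. PPa6, the plastid inorganic pyrophosphatase, averaged 24.7, 51.4, 47.2 and 7.48 CPM in water and at 1, 2 and 3 h (log2 fold change -2.84, adjusted p = 8.90e-05). AT2G27080, annotated as a LEA hydroxyproline-rich glycoprotein, averaged 38.5, 40.4, 32.6 and 4.11 CPM in the same order (log2 fold change -3.30, adjusted p = 5.02e-06). AT2G44060, a LEA group 2 gene, averaged 70.1, 55.2, 54.5 and 8.50 CPM (log2 fold change -2.68, adjusted p = 4.53e-05). The 3 libraries of 3 h agreed closely in this gene, at 8.27, 8.78 and 8.43 CPM. The uncharacterized genes AT1G70780 (log2 fold change -2.73, adjusted p = 6.51e-06) and AT5G16110 (log2 fold change -2.93, adjusted p = 1.90e-05) also fell, with 52.3 and 48.8 CPM at 2 h and 6.85 and 6.10 CPM at 3 h. RPS18C, a small-subunit ribosomal protein gene, fell 3.15-fold (log2 fold change -1.66, adjusted p = 0.00195). Of 52 cytosolic ribosomal protein genes, 2 fell and 3 rose (median log2 fold change 0.04), against 13.8% called among all genes tested. None of the 3 rises was called without 1 h replicate a or c, without 3 h replicate b or c, or with only the 6 libraries.

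Coatomer subunits, which coat vesicles between the Golgi apparatus and the endoplasmic reticulum, fell in 4 of 9 cases and rose in none (median log2 fold change -0.71). The epsilon subunit gene AT1G30630 stood at 16.6, 20.7 and 14.2 CPM at 1 h and 2.76, 3.59 and 3.97 CPM at 3 h. The groups were well apart. It fell 5.25-fold (log2 fold change -2.39, SE 0.38, adjusted p = 3.91e-04), after 14.1 CPM in water and 14.9 CPM at 2 h. The beta subunit gene AT4G31480, whose neighbour AT4G31490 is a near-identical copy, also fell. Without 1 h replicate a, 1 h replicate c or 3 h replicate c, 2 coatomer genes were called, and likewise with no filter, with only the 6 libraries or at the depth of the smallest library.

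**Figure D5:**
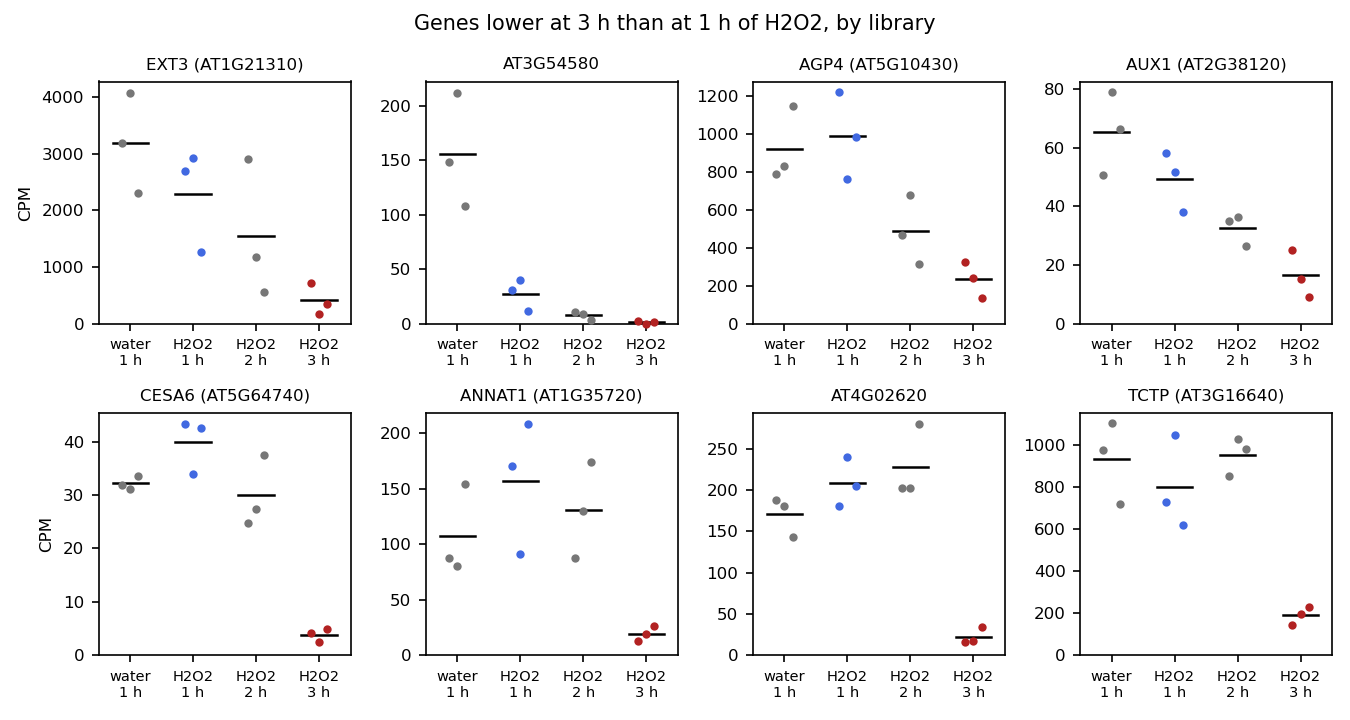
Each panel gives 1 gene in CPM on a linear axis from 0, with replicates a, b and c as points from left to right and the group mean as a bar, for water 1 h and H2O2 at 1, 2 and 3 h. In the upper row the means at 2 h lie between those of 1 h and 3 h; in the lower row the means of the first 3 groups all lie far above the 3 h libraries (red).

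Among the largest rises were RNAs that lie beside ribosomal RNA genes. AT3G06325, annotated as a long non-coding RNA, stood at 5.53, 5.53 and 9.47 CPM at 1 h and 73.2, 137 and 251 CPM at 3 h. It was highest in replicate c and lowest in replicate a of 3 h. It rose 24.5-fold (log2 fold change 4.61, SE 0.46, adjusted p = 6.90e-06), with a mean of 1.06 CPM in water. AT2G01008 rose 25.8-fold (log2 fold change 4.69, adjusted p = 2.60e-05) and AT3G41761 rose 14.2-fold (log2 fold change 3.83, adjusted p = 1.60e-04). In the RefSeq order of genes each lies within 2 genes of an 18S ribosomal RNA gene, and copies of this flank are alike, so their reads may be shared. AT2G01020, annotated as a ribosomal RNA, stood at 7.37, 3.75 and 25.3 CPM at 1 h and 35.8, 63.5 and 56.1 CPM at 3 h and rose 5.63-fold (log2 fold change 2.49, adjusted p = 0.0093), and its call was lost without 1 h replicate b. The part of ribosomal RNA reads in these values was not tested.

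The remaining large rises belonged to no list. PDF1.4, a defensin-like gene, stood at 7.37, 6.72 and 6.31 CPM at 1 h and 44.8, 111 and 148 CPM at 3 h. All 3 h libraries were above those of 1 h. It rose 14.67-fold (log2 fold change 3.87, adjusted p = 6.07e-05), after 29.8 CPM in water and 75.5 CPM at 2 h. AT2G41730, annotated as a calcium-binding site protein, rose 13-fold (log2 fold change 3.71, adjusted p = 2.45e-05). Of the abundant transcripts that changed, AT2G33830 (DRM2), a gene tied to dormancy and low growth, rose 2.48-fold (log2 fold change 1.31, adjusted p = 0.00158), with means of 1735 CPM at 1 h and 4307 CPM at 3 h. The glycine-rich protein gene DOT1 fell 2.32-fold (log2 fold change -1.21, adjusted p = 0.00464), with means of 4196 CPM at 1 h and 1810.2 CPM at 3 h.

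Each of the other lists held at most 2 calls, where 13.8% of all genes tested were called. These counts were not tested against that share. Of 16 endodermis and suberin genes 1 rose, FACT, a call lost under most alternatives, and the Casparian strip gene CASP1 was not called (log2 fold change 0.15, adjusted p = 0.738). Of 8 clock genes the evening genes ELF4 (log2 fold change 1.1, adjusted p = 0.0112) and LUX (log2 fold change 1.01, adjusted p = 0.0196) rose, and neither was called without 1 h replicate a, without 3 h replicate c or at the depth of the smallest library. Of 10 nitrogen genes the nitrate reductase gene NIA1 rose (log2 fold change 0.96, adjusted p = 0.0486), a call that was lost in each fit that left out 1 h replicate a or c or any library of 3 h. The call of NIA1 was also lost under upper-quartile scaling, with a replicate block and at the depth of the smallest library. The root cap factor gene SMB fell (log2 fold change -1.37, adjusted p = 0.0291), a call lost without 1 h replicate a or c or 3 h replicate b or c. It was also lost with no filter, with only the 6 libraries and at the depth of the smallest library. No call was made among 5 autophagy genes (1 higher at an unadjusted p under 0.05, none by DESeq2) or 4 xylem and phloem genes (1 at an unadjusted p, none by DESeq2). None was made among 14 genes of the mitochondrial genome (none at an unadjusted p under 0.05 and none by DESeq2).

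The 3 h libraries differed in level over the called genes, most clearly over those called higher. Of the 690 genes called higher, 531 (77.0%) had their highest level of 3 h in replicate c and 461 (66.8%) their lowest in replicate a. Of the 693 called lower, 290 (41.8%) were lowest in replicate c and 286 (41.3%) highest in replicate a. The median SD of log2 CPM over genes was 0.367 at 3 h and 0.435 at 1 h. Replicate c also had the lowest normalization factor of the 15 libraries, 0.784, and what part the scaling has in this order was not tested.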

How the data were processed

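Root RNA of wild-type Columbia-0 seedlings was measured in 15 libraries of 5 groups with 3 replicates each, and 6 libraries enter the contrast. Tools named in the submitters' processing notes, without their roles, are STAR 2.4.2a, HTSeq, cutadapt, bcl2fastq and DESeq2. No source used here names the genome build or annotation or says how molecular identifiers were handled. In all, 14532 genes are listed, each with at least 6 counts in some library, as raw counts per gene deposited by the authors. Of the per-sample columns, the 15 of counts were used, and 30 with the authors' normalized and log-transformed values were not used here. The authors' deposited log2 fold changes, p-values and yes or no calls entered only the sentence that names them. Their sign runs from 3 h to 1 h and was turned.

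Counts were fitted with edgeR 4.0.16 (R 4.3.3): of the listed genes, 9986 passed filterByExpr (at least 10 counts and 15 in total) and 4546 did not, TMM factors ran from 0.784 to 1.2, and a robust quasi-likelihood model had a term per group over all 15 libraries (10 residual degrees of freedom, common biological coefficient of variation 0.272). The contrast was 3 h minus 1 h of H2O2, two-sided, with Benjamini-Hochberg adjustment over all genes tested and calls at an adjusted p under 0.05. The SE is the size of the log2 fold change over the root of its F, with a median of 0.374. CPM values use TMM and are not divided by gene length, as 3' tags do not scale with it. Shares of counts were compared by exact permutation tests, two-sided, and lists carry no test of their own. Depth limits genes with few counts most, and intervals from counts cover counting error only.

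Gene names are those of RefSeq, matched by locus identifier, and classes such as histones and class III peroxidases were taken from its product names. The gene lists, members and tests were chosen with earlier results of these data known. Named were the 12 largest rises and falls with a mean of at least 20 CPM, the 5 smallest p-values in each direction, the 10 most abundant calls, and up to 4 called and 2 uncalled members per list, and a selection of these is printed. PPDK, ICL, TCTP, AT2G01020, AT4G21870, BGLU22, PYK10 and several members of the named families were picked after their values were seen. Replicates are separate pools of seedlings per the labels' protocols, and what the letters mark is not given. Libraries of a letter at 1 h and 3 h did not deviate together (residual correlations -0.054, -0.444 and 0.009 for a, b and c), so letters were not used as pairs. The alternatives tried were DESeq2 1.42.0, its size factors, upper-quartile scaling, no filter, only the 6 libraries, a replicate block, thinning to 689372 counts, and each library left out. Sequences and coordinates are not given, since the build of the files is not named.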

Additional observations from a re-analysis of the deposited data

How the results depend on the processing

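The count of 1383 called genes (690 higher, 693 lower) stayed within 1.5 times under DESeq2 (1515), its size factors (1371), upper-quartile scaling (1419), no filter (1533) and a replicate block (1284; the letters do not pair the libraries, and 1239 of the block's calls were among the 1383). It was lower with only the 6 libraries of the contrast (848: 413 higher, 435 lower), which leaves fewer libraries to estimate the spread, and at the depth of the smallest library (803: 432 higher, 371 lower). Leaving out 1 library gave 749 to 1492 calls (345 to 929 higher, 393 to 588 lower). Of 117 called genes named above, 82 kept their call under every alternative in which they were tested, none changed sign, 14 lost it only when a library was left out and 21 under another alternative. Of 25 genes that were named with a log2 fold change and not called, 5 changed sign under some alternative. With no filter on low counts the log2 fold changes were 0.12 for UGT73B2, 0.087 for CAT2 and 0.10 for DIN10. For DIN10 it was 0.0698 with a replicate block and 0.0039 by DESeq2. With a library left out, they ran from -0.053 to 0.52 for ZAT10, -0.065 to 0.38 for CASP1, -0.23 to 0.29 for UGT73B2, -0.28 to 0.055 for CAT2 and -0.37 to 0.99 for DIN10. The causes were not tested. Depth limits genes with few counts: 4546 of 14532 listed genes were not tested.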
